A study of Mus musculus with 8 samples.

Results

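The 10 genes described here mark macrophages and were followed in brown adipose tissue (BAT), the heat-producing fat depot of rodents. They were taken from the 31053 genes of the deposited count table by matching Ensembl identifiers to mouse gene symbols, and all 10 were found. Of the markers, 8 are general ones (Adgre1, Cd68, Csf1r, Fcgr1, Cd14, Lyz2, Ms4a7 and Aif1) and 2 are of the resident type (Mrc1 and Cd163). The 8 libraries came from 8-week-old male mice on normal diet, killed after a fast. The 4 wild-type (WT) mice were C57BL6/J from Charles River, and the 4 db/db mice were B6.BKS(D)-Leprdb/J from Jackson, which carry a mutation of the leptin receptor gene and become obese and diabetic. The study's list of materials names Jackson for the WT strain too, so whether the supplier also differed between the genotypes is not settled by the sources. That list gives the db/db mice by a stock number without a strain name, so the db/db strain given here rests on the methods and was not checked. The labels give the same strain for both genotypes, and no difference in treatment.

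Macrophages are phagocytes that settle in every tissue, where they clear dying cells, lipid and debris. Their survival depends on signalling through the CSF1 receptor, and their identity on the transcription factor PU.1. In fat, long-lived resident macrophages lie along vessels and carry the mannose receptor and the haemoglobin scavenger receptor CD163. Further macrophages that arise from blood monocytes accumulate around adipocytes in obesity. Markers such as F4/80 and CD68 are shared by both kinds, so a general marker counts macrophages of any origin.

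The labels name the tissue as BAT but the cell type as stromal vascular fraction, the part of fat left once adipocytes are removed. The methods describe RNA from tissue. Adipocyte genes were abundant in every library, since a list of 14 brown adipocyte genes summed to 16755 to 22936 CPM (counts scaled by library size) in WT and 17296 to 23523 CPM in db/db, so the values were read as those of whole BAT. In a bulk sample, more macrophages and more marker RNA per macrophage cannot be told apart. Total counts lay between 2374079 and 2615009 in WT and between 2382722 and 3240074 in db/db. At these depths 3 counts, taken as the detection floor, equal 0.902 to 1.33 CPM. Lepr, the mutated gene, was at 0 counts in each of the 8 libraries, which left no check of the labels on it. A list of 20 skeletal muscle genes was higher in db/db, with sums of 525 to 2020 CPM in WT and 2674 to 13706 CPM in db/db, and 19 of its genes passed the test.

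To show what lies before the genes that the resident-to-general comparison turns on, the bases upstream of the RefSeq transcription start (build GRCm38.p6) are given for 2 general markers, Lyz2 and Cd68, and for both resident markers. They were read 5′ to 3′ on the strand of the gene, over at most 250 bases, and cut where the annotated gene begins. Capitals mark AGGAAG or its reverse complement CTTCCT, the core of the sites that PU.1 and other ETS factors bind.
Lyz2, chr10:117282322-117282522, minus strand: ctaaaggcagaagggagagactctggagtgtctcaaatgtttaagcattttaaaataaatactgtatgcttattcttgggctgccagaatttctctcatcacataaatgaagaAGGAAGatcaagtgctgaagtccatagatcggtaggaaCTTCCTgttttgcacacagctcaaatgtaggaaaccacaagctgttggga
Cd68, chr11:69666171-69666420, minus strand: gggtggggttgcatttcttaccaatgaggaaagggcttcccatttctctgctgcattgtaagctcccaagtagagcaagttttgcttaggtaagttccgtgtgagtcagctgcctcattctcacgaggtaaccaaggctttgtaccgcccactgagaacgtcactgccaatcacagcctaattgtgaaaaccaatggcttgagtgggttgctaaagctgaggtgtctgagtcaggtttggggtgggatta
Mrc1, chr2:14229164-14229391, plus strand: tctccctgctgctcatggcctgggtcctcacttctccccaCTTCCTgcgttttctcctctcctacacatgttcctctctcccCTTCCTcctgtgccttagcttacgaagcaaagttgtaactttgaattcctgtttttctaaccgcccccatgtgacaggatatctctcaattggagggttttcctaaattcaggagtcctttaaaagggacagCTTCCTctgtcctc
Cd163, chr6:124304401-124304650, plus strand: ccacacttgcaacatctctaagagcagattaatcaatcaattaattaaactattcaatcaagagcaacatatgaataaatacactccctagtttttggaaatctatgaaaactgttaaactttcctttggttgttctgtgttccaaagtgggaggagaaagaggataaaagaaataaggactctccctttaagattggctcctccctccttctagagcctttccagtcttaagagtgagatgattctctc
The Lyz2 stretch held 2 copies of the core and the Mrc1 stretch 3, while those of Cd68 and Cd163 held 0. The core was thus present before 1 general and 1 resident marker of the 4. RefSeq promoters were found for 7 of the 10 markers, and Adgre1, Csf1r and Cd14 had no entry. Among the others, Fcgr1 held 2 overlapping copies, and Ms4a7 and Aif1 held 0. The same core occurs in 29.5% of all 32851 mouse promoters over 250 bases. The letters TATAAA, in either orientation, occurred in 0 of the 8 windows of these markers (Ms4a7 has 2 starts), against 12.4% of all promoters. A match of letters is a description of the sequence and does not show a bound site.

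Macrophage markers were higher in db/db BAT, both general and resident ones. Of the 10 markers, 8 had enough counts to be tested, and 7 of them rose in db/db at an adjusted p under 0.05 over all genes tested (edgeR quasi-likelihood test). By the same rule 27.7% of all 9264 genes tested passed, 15.8% higher and 11.9% lower, and the median log2 fold change was 0.01. The 7 were Lyz2, Cd68, Adgre1, Csf1r, Aif1, Mrc1 and Cd163, with folds from 2.94 to 6.94. In each of them all 4 db/db libraries lay above all 4 WT libraries, which held for 15.3% of the tested genes. A log2 fold change as large as that of Cd163, the smallest of the 7, was reached by 5.96% of tested genes. The filter lets a gene pass through the genotype in which it is high. With at least 10 counts required in every library, Csf1r, Lyz2, Mrc1 and Cd163 were left, and all 4 rose. By that filter 2018 of 7333 genes passed in either direction. Fcgr1 and Ms4a7 had too few counts for the main test, and Cd14 was the 1 tested marker with a lower mean in db/db.

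**Figure D1:**
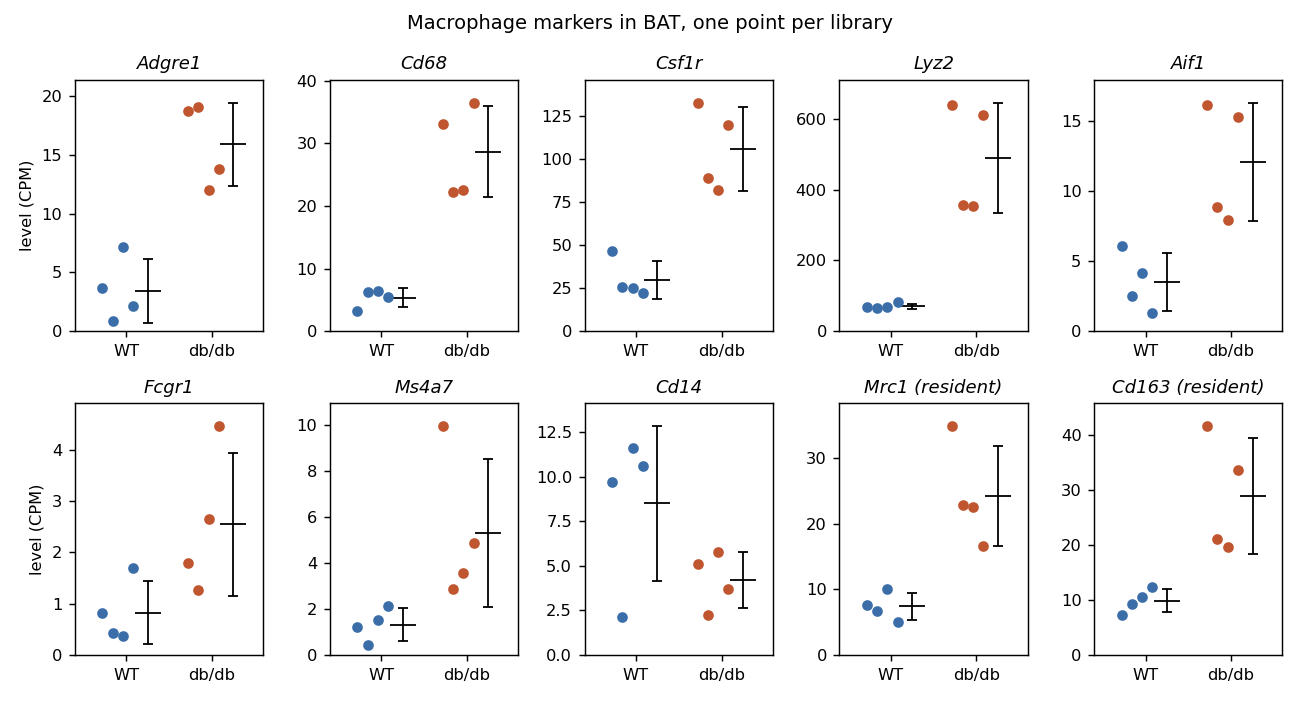
CPM of the 10 markers in each library, with an axis from 0 for every panel; each point is 1 library (replicates 1 to 4 from left to right), and the bar beside them is the mean of the genotype with its SD. In Lyz2, the WT libraries lie between 65.0 and 81.1 CPM and the db/db libraries between 354 and 639 CPM, while in Cd14 the genotypes overlap.

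Lyz2 (ENSMUSG00000069516, chromosome 10, 117277331 to 117282321, minus strand, mm10) encodes the lysozyme M of macrophages and neutrophils, an enzyme that cuts bacterial cell walls. WT replicates 1 to 4 had 68.0, 65.0, 68.0 and 81.1 CPM, and the db/db replicates had 639, 355, 354 and 609 CPM. The WT libraries were close together, and db/db replicates 1 and 4 stood well above replicates 2 and 3. Lyz2 rose 6.94-fold (log2 fold change 2.79 ± 0.20 SE, adjusted p 3.02e-08 in edgeR), a change that 1.61% of tested genes equalled or exceeded. Its near-identical neighbour Lyz1, from which reads may be shared, had 0 to 1.88 CPM in WT and 5.73 to 22.0 CPM in db/db. This made the split between both lysozyme genes uncertain, but their sum was mostly Lyz2.

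Cd68 (chromosome 11, 69664213 to 69666153, minus strand) encodes macrosialin, a glycoprotein of the lysosomes of phagocytes. Its WT libraries had 3.24, 6.33, 6.39 and 5.52 CPM and its db/db libraries 33.1, 22.3, 22.6 and 36.5 CPM. As in Lyz2, db/db replicates 1 and 4 were the higher pair. Cd68 rose 5.30-fold (log2 fold change 2.41 ± 0.27 SE, adjusted p 5.37e-06 in edgeR).

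Adgre1 (chromosome 17, 57358691 to 57483527, plus strand) encodes F4/80, the adhesion receptor most used to recognise mouse macrophages. Its level was 3.64, 0.844, 7.14 and 2.12 CPM in WT replicates 1 to 4, and 18.7, 19.1, 12.0 and 13.8 CPM in db/db. The WT value of replicate 2 was at 2 counts, under the detection floor, and the WT libraries were spread widely for so low a gene. Here db/db replicates 1 and 2 were the higher pair. Adgre1 rose 4.51-fold (log2 fold change 2.17 ± 0.41 SE, adjusted p 0.0006 in edgeR).

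Csf1r, on chromosome 18, encodes the receptor for the growth factors CSF1 and IL-34. It had 46.5, 25.7, 25.2 and 22.1 CPM in WT and 133, 89.1, 82.0 and 120 CPM in db/db. WT replicate 1 stood above the other WT libraries and still far below every db/db library. Csf1r rose 3.55-fold (log2 fold change 1.83 ± 0.22 SE, adjusted p 1.03e-05 in edgeR). Its exons share 873 bases with Hmgxb3 on the opposite strand, so its counts are uncertain.

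Aif1 (chromosome 17, 35170991 to 35176068, minus strand) encodes IBA1, an actin-bundling protein of macrophages and microglia. The WT libraries had 6.07, 2.53, 4.13 and 1.27 CPM and the db/db libraries 16.2, 8.91, 7.98 and 15.3 CPM. The highest WT and the lowest db/db library were close to each other. Aif1 rose 3.42-fold (log2 fold change 1.77 ± 0.41 SE, adjusted p 0.00329 in edgeR).

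Both resident-type markers rose too. Mrc1 (ENSMUSG00000026712, chromosome 2, 14229392 to 14332057, plus strand) encodes the mannose receptor CD206, which takes up glycoproteins. Its WT libraries had 7.69, 6.75, 10.1 and 5.09 CPM, and its db/db libraries had 34.9, 22.9, 22.6 and 16.7 CPM. Unlike in Lyz2 and Cd68, db/db replicate 4 was the lowest of its genotype. Mrc1 rose 3.26-fold (log2 fold change 1.70 ± 0.28 SE, adjusted p 0.000199 in edgeR). The microRNA gene Mir511 lies inside Mrc1 but shares no exon bases with it.

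Cd163 (ENSMUSG00000008845, chromosome 6, 124304656 to 124330527, plus strand) encodes the receptor through which macrophages take up haemoglobin bound to haptoglobin. It had 7.28, 9.28, 10.5 and 12.3 CPM in WT and 41.5, 21.0, 19.5 and 33.5 CPM in db/db. Replicates 1 and 4 were again the higher db/db libraries. Cd163 rose 2.94-fold (log2 fold change 1.56 ± 0.27 SE, adjusted p 0.000346 in edgeR).

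Cd14, on chromosome 18, encodes a co-receptor that hands bacterial lipopolysaccharide to the TLR4 complex. Its level was 9.71, 2.11, 11.6 and 10.6 CPM in WT and 5.11, 2.23, 5.76 and 3.72 CPM in db/db. WT replicate 2 was the lowest of all 8 libraries, and the other WT libraries lay above every db/db library. The difference did not pass the test (log2 fold change −1.03, SE 0.45, p 0.0355, edgeR adjusted p 0.0997). It passed when every gene with a count was tested (edgeR adjusted p 0.0426) and without WT replicate 2 (log2 fold change −1.36, edgeR adjusted p 0.0159).

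The remaining general markers were known only by a few counts. Ms4a7, a tetraspan membrane protein gene used to mark tissue macrophages, had 3, 1, 4 and 5 counts in the WT libraries and 33, 9, 8 and 13 counts in db/db. Every db/db library held more than every WT library, and replicate 1 alone held 33 of the 63 db/db counts. Set against 13 counts in WT this gave a ratio of rates of 4.19, with an exact 95% interval of 2.28 to 8.29 that covers counting error only. Fcgr1 encodes the high-affinity receptor for IgG. It had 2, 1, 1 and 4 counts in WT and 6, 4, 6 and 12 counts in db/db, a ratio of 3.02 with an interval of 1.34 to 7.68. With every gene with a count tested, where 11.3% of genes rose, Ms4a7 passed with a log2 fold change of 1.93 (adjusted p 0.00834 in edgeR) and Fcgr1, at 1.53, did not (adjusted p 0.202 in edgeR).

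**Figure D2:**
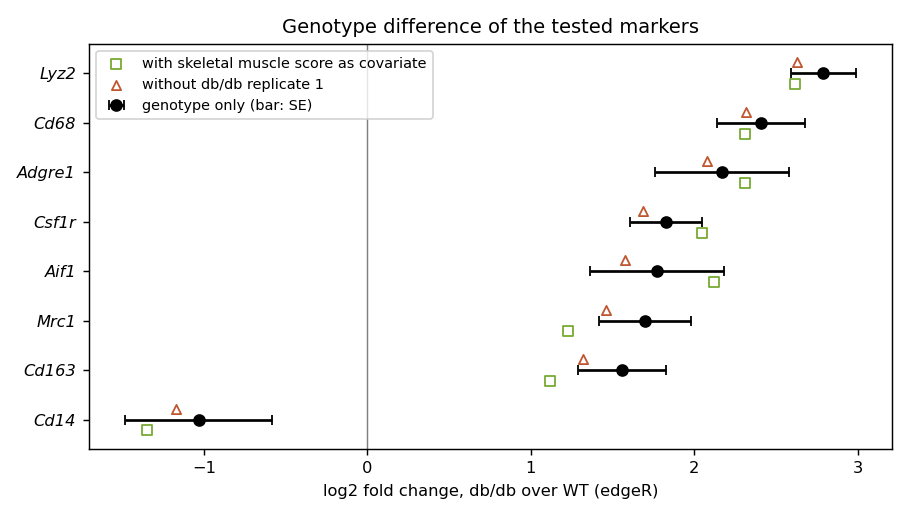
Log2 fold change (db/db over WT) of the 8 tested markers from edgeR; filled circles with bars are the estimate and its SE with genotype as the only term, open squares the estimate with the skeletal muscle score of each library as a covariate, and triangles the estimate without db/db replicate 1. The values of 7 markers lie to the right of 0 in all 3 fits, Mrc1 and Cd163 move furthest left with the covariate, to 1.23 and 1.12, and Cd14 lies at −1.03.

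Within db/db, the libraries were not alike. The markers summed to 933, 545, 532 and 857 CPM in db/db replicates 1 to 4, against 154, 119, 145 and 144 CPM in WT. Most of the db/db sums was Lyz2, at 639, 355, 354 and 609 CPM. Replicate 1 was the highest db/db library for 5 of the 7 markers that rose, and replicate 3 the lowest for 5. Replicate 1 also had the highest sum of skeletal muscle genes, at 13706 CPM. Replicate 4, the next highest in marker sum through Lyz2, had the lowest muscle sum of its genotype, at 2674 CPM. It was the lowest db/db library in Mrc1, at 16.7 CPM. Without replicate 1 all 7 markers still passed, with log2 fold changes between 1.32 and 2.63. With the muscle score of each library as a covariate, where 5.85% of tested genes rose, 5 markers passed, and both resident markers did not. Mrc1 then had a log2 fold change of 1.23 (edgeR adjusted p 0.0986) and Cd163 one of 1.12 (edgeR adjusted p 0.0873), while Lyz2 had one of 2.62 (edgeR adjusted p 2.62e-06).

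To ask whether resident markers changed less than general ones, the log2 ratio of each resident to each general marker was taken within every library and compared between genotypes. In this ratio the scaling of the library cancels. The ratio was lower in db/db in 11 of the 16 pairs. By the fitted log2 fold changes, the resident marker had the smaller value in 10 of the 12 pairs of tested markers. With every gene with a count tested, it had the smaller value in 13 of 16 pairs. In an exact two-sided permutation test of the ratios, 4 pairs had an unadjusted p under 0.05. Each exact p was 0.0286, the smallest that 4 against 4 libraries allow (adjusted p 0.114). With that smallest p, Benjamini-Hochberg adjustment over 16 pairs could pass a pair only if at least 10 pairs reached it, so that 0 pairs past the adjusted threshold says little about the size of the differences.

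The ratio to Lyz2 was lower in db/db for both resident genes. Log2 of Cd163 over Lyz2 was −3.10, −2.71, −2.61 and −2.65 in WT and −3.92, −4.03, −4.13 and −4.15 in db/db. The genotypes did not overlap, and both were tight, at −2.77 ± 0.22 and −4.06 ± 0.11 (SD, n = 4 each), a difference of −1.29 (exact permutation p 0.0286, adjusted 0.114). Log2 of Mrc1 over Lyz2 was −3.03, −3.13, −2.66 and −3.81 in WT and −4.16, −3.91, −3.92 and −5.12 in db/db. The genotypes did not overlap here either, though WT replicate 4 came close to db/db replicates 2 and 3, and the difference was −1.13 (exact permutation p 0.0286, adjusted 0.114).

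Against Cd68, log2 of Cd163 over Cd68 was 1.01, 0.50, 0.66 and 1.06 in WT and 0.32, −0.08, −0.21 and −0.12 in db/db. All 4 db/db ratios lay below all WT ratios, with a difference of −0.83 (exact permutation p 0.0286, adjusted 0.114). Mrc1 over Cd68 differed by −0.66 and overlapped between the genotypes (exact permutation p 0.200). In WT it ran from −0.10 to 1.08, and in db/db 3 libraries were near 0 and replicate 4 was at −1.09.

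Against the other general markers the ratios overlapped between the genotypes or moved the other way. The differences from WT to db/db were −0.60 for Mrc1 over Adgre1 and −0.76 for Cd163 over Adgre1, with overlap between the genotypes (exact permutation p 0.143 and 0.257). For Csf1r they were −0.23 and −0.40, and for Aif1 −0.07 and −0.24. For Ms4a7 they were 0.12 and −0.05, and for Fcgr1 0.56 and 0.39. The ratios of Ms4a7 and Fcgr1 rest on a few counts, whose change is shrunk by the prior count of 2 added before taking logs. In the edgeR fit of every gene with a count, the log2 fold changes were 1.93 for Ms4a7 and 1.53 for Fcgr1. Those of Mrc1 and Cd163 in that fit were 1.65 and 1.51. Cd14, the general marker that did not rise, gave the opposite direction. Mrc1 over Cd14 was higher in all 4 db/db libraries than in any WT library, by 2.37 on the log2 scale (exact permutation p 0.0286, adjusted 0.114), and Cd163 over Cd14 was higher by 2.20 (exact permutation p 0.0571, adjusted 0.183).

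**Figure D3:**
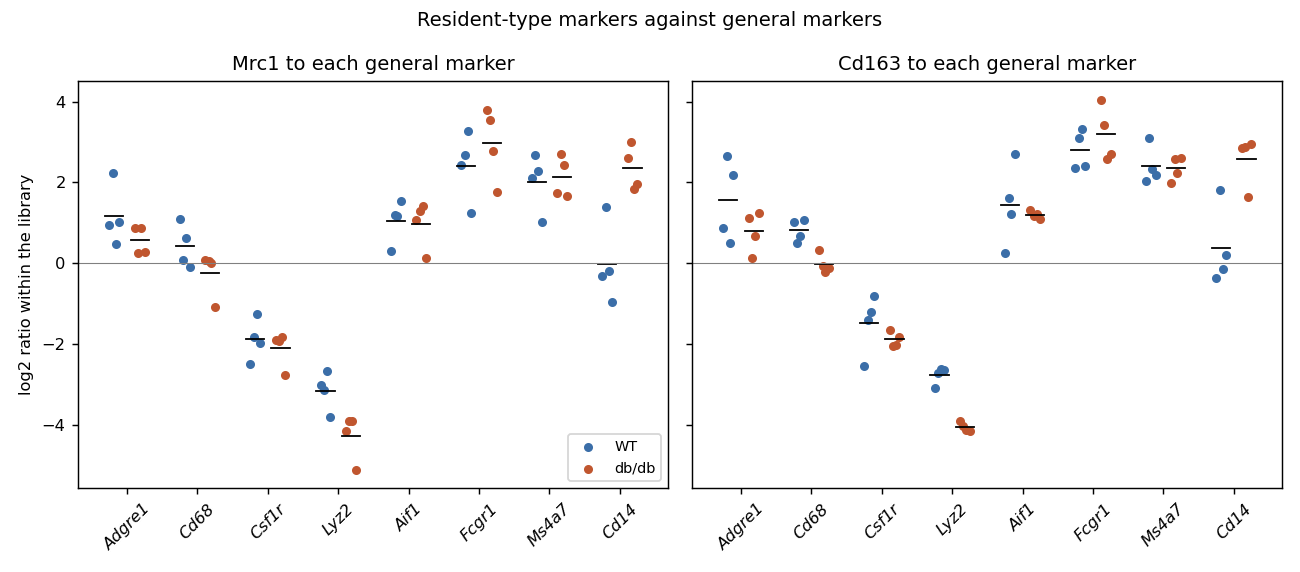
Log2 ratio of Mrc1 (left) and of Cd163 (right) to each of the 8 general markers in each library, with points for WT and db/db libraries and a bar at the mean of each genotype. The db/db points lie below the WT points for Lyz2 in both panels and for Cd68 in the Cd163 panel, above them for Cd14 in the Mrc1 panel, and overlap for Csf1r, Aif1 and Ms4a7.

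The markers did not all vary together among animals of 1 genotype. After the genotype means were taken away, the 21 pairs of markers that rose had a median correlation of 0.23 over the 8 libraries, from −0.19 to 0.91, and 16 were positive. The closest pairs were Lyz2 with Cd163 (r = 0.91), Csf1r with Aif1 (r = 0.88) and Cd68 with Cd163 (r = 0.80). Mrc1 and Cd163 had r = 0.11. Of 6694 genes with a mean of at least 10 CPM, the 5 whose deviations followed the mean of the markers most closely were Cfap97 (r = 0.978), the complement gene C1qb (r = 0.976), Atp6v0a1, a subunit gene of the proton pump that acidifies lysosomes (r = 0.961), Sil1 (r = 0.959) and Acp5, the tartrate-resistant acid phosphatase gene (r = 0.958). C1qb (log2 fold change 2.41) and Atp6v0a1 (1.41) rose in db/db, Cfap97 fell by 0.91 on the log2 scale, and Sil1 (0.16) and Acp5 (−0.04) did not pass the test. Exons of Cfap97, Sil1 and Acp5 overlap other genes, so their counts are uncertain. The 8 values behind each r share library depth and tissue makeup, so they are given without a test. The mean was taken over all 8 tested markers, Cd14 included. These 5 are the highest of 6694 values of r, and the highest of so many can be large by selection alone.

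Other genes of the macrophage were read from lists that hold none of the 10 markers. Of 24 further genes expressed across macrophages and other myeloid cells, 21 were tested and 18 rose, with 0 falling and a median log2 fold change of 2.41. Several entered the test through db/db alone, and with at least 10 counts in every library 7 were left, all of which rose. Of all 7333 genes left by that filter, 2018 passed in either direction. Ctss, a lysosomal cysteine protease gene, went from 7.91 ± 1.28 to 72.5 ± 22.2 CPM (mean ± SD of 4 libraries per genotype; log2 difference 3.19 ± 0.25 SE; adjusted p 6.56e-08 in edgeR). Laptm5, a lysosomal membrane protein gene of blood cells, and C1qc, a chain of the first complement component, rose by 2.85 and 2.18 on the log2 scale. Ptprc, the pan-leukocyte gene of CD45, had a log2 fold change of 1.16 and did not pass (edgeR adjusted p 0.0625), nor did Cx3cr1 (1.14, adjusted p 0.0900, overlapping Gm33858) and Lst1 (0.75, adjusted p 0.192).

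Genes of resident and perivascular macrophages also rose. Of 18, 11 were tested and all 11 rose, with a median of 2.08. With at least 10 counts in every library 7 were left, and these rose too. Pf4, a chemokine gene that resident macrophages express, went from 16.2 ± 5.04 to 83.4 ± 19.4 CPM (mean ± SD of 4 libraries per genotype; log2 difference 2.37 ± 0.22 SE; adjusted p 4.61e-07 in edgeR). Lyve1, the hyaluronan receptor gene of perivascular macrophages and lymphatic vessels, rose by 2.94, and Gas6, a ligand of receptors that bind dying cells, by 2.37. Gas6 overlaps Tmem255b by 34 exon bases and is uncertain. The other 7 were under the filter, among them Mgl2, with a lower mean in db/db (0 to 1.88 CPM in WT and 0 to 0.954 CPM in db/db), Timd4, at most 0.422 CPM in WT and 1.49 in db/db, and Vsig4, with 0 counts in WT and 0.443 to 3.31 CPM in db/db. Of the 11, 10 passed without db/db replicate 1 and 6 with the muscle covariate.

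Around the CSF1 receptor, a list of 16 genes held its ligands, subunits of the GM-CSF receptor and transcription factors of macrophages. Of these, 13 were tested and 6 rose. With at least 10 counts in every library 5 of 11 rose. That filter left out Csf1, which had at most 8 counts in any WT library. Csf1, the main ligand, went from 1.92 ± 1.24 to 12.8 ± 4.49 CPM (mean ± SD of 4 libraries per genotype; log2 difference 2.72 ± 0.45 SE; adjusted p 0.000197 in edgeR), while the other ligand, Il34, which overlaps Gm15894, had a log2 fold change of 0.50 and did not pass (edgeR adjusted p 0.229). Csf2ra, a GM-CSF receptor subunit and so no part of CSF1 signalling itself, rose by 2.09, and Spi1, which encodes PU.1, by 2.20 (edgeR adjusted p 0.000491). Maf, Zeb2 and Irf8, further transcription factor genes of macrophages, rose by 1.11, 0.67 and 1.17, of which Maf and Zeb2 overlap other genes and are uncertain. The count of genes in this list that rose was 4 without db/db replicate 1 and 2 with the muscle covariate.

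Of 10 Fc receptor and partner genes of Fcgr1, 4 could be tested and all 4 rose, 3 of which also stand in the list of myeloid genes. With at least 10 counts in every library 2 were left and both rose, and with every gene with a count 7 of 10 rose. The 3 shared genes of the main test were Fcgr3 (2.47), Fcer1g, the signalling chain of Fcgr1 and Fcgr3 (2.05), and the inhibitory receptor gene Fcgr2b (2.66), whose counts overlap Gm38204. The other one was the kinase gene Lyn (0.96), which overlaps Gm26857. Around Cd14, 2 of the 7 tested co-receptor and adaptor genes rose and the median was 0.12. The count was 1 without db/db replicate 1, without WT replicate 2 or 4 and with the muscle covariate, and 0 of 2 with at least 10 counts in every library. Lbp, the plasma protein that loads lipopolysaccharide onto CD14, went from 2.21 ± 1.65 to 61.1 ± 15.7 CPM (mean ± SD of 4 libraries per genotype; log2 difference 4.75 ± 0.35 SE; adjusted p 3.39e-08 in edgeR), and the kinase gene Irak4, which overlaps Twf1 and is uncertain, rose by 1.01. The adaptor gene Myd88, which overlaps Acaa1a, had a log2 fold change of −0.30 (edgeR adjusted p 0.525). The receptor gene Tlr4 was under the filter, at 0.844 to 2.63 CPM in WT and 2.98 to 5.73 CPM in db/db.

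Activation genes gave unequal counts. All 12 inflammatory activation genes were under the filter. Il6, Il12b and Il1a had 0 counts in every library, Tnf had at most 2, and the 12 together summed to 2.53 to 4.13 CPM in WT and 3.99 to 12.6 CPM in db/db. Of 12 genes of alternative activation, 2 were tested and both rose, of which 1 passed with the muscle covariate. With every gene with a count tested, 4 of 10 rose. Retnla, a secreted protein gene induced by IL-4, which adipose tissue cells other than macrophages also express, went from 28.7 ± 4.62 to 228 ± 85.6 CPM (mean ± SD of 4 libraries per genotype; log2 difference 2.99 ± 0.22 SE; adjusted p 4.19e-08 in edgeR), and the IL-4 receptor gene Il4ra, uncertain by its overlap with Gm44876, by 1.17. Chil3 had 0 counts in every WT library and 0 to 1.5 CPM in db/db, near the detection floor. Of 15 genes of lipid-associated macrophages 14 were tested, of which 10 rose and 1, the lipase gene Lpl, which adipocytes express strongly, fell. Gpnmb, a lysosomal glycoprotein gene, rose by 3.36, Lgals3, the galectin-3 gene, by 4.54, and in Trem2, the lipid receptor gene, no WT library held more than 1 count. With the muscle covariate 5 of these genes were higher and 0 lower, and the call of Lpl was also lost without WT replicate 3 and without db/db replicate 2 or 4.

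**Figure D4:**
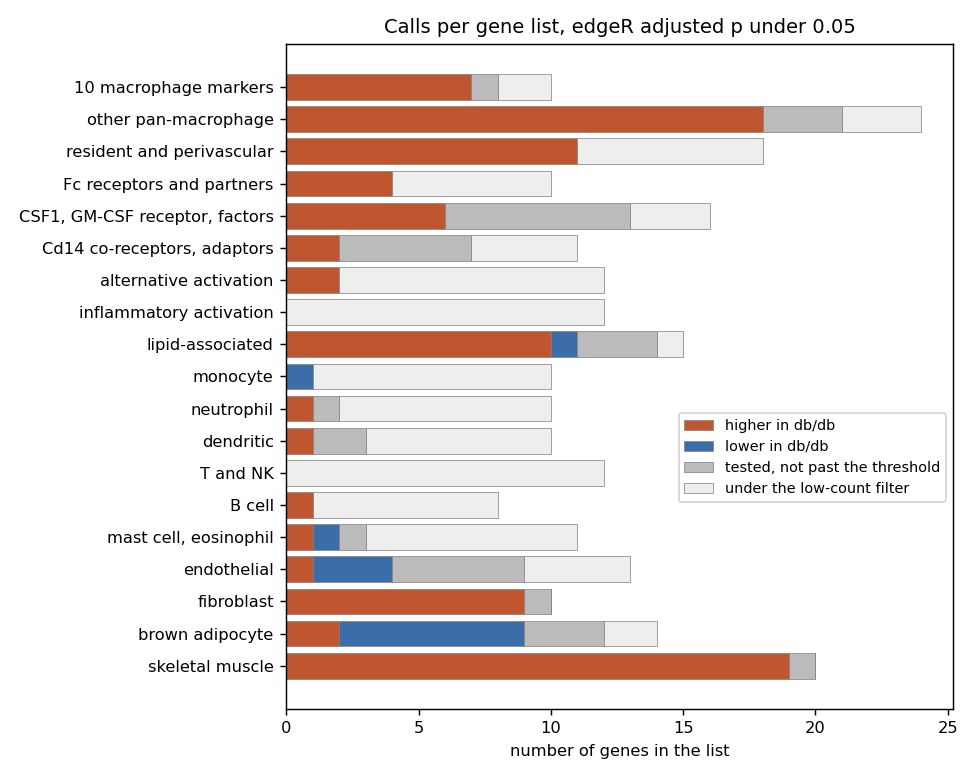
Number of genes in each list that were higher in db/db, lower in db/db, tested without passing, or under the low-count filter (edgeR adjusted p under 0.05); each bar is 1 list and its length the number of genes in it. The 10 markers, the further myeloid genes and the resident and perivascular genes have 7, 18 and 11 genes higher and 0 lower, while most genes of the monocyte, neutrophil, T and NK and B cell lists were under the filter.

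Markers of other blood cells were mostly too low to test. Of 10 monocyte genes 1 was tested, Nr4a1, an immediate-early gene that many cells express, and it fell from 59.4 ± 42.1 to 8.16 ± 6.67 CPM (SD, n = 4 each; edgeR adjusted p 0.00439). Its genotypes overlapped, with 1.21 CPM in the lowest WT library and 1.33 to 15.6 CPM in db/db, and it did not pass with limma-voom or with the muscle covariate. With every gene with a count tested, 3 monocyte genes were higher and 1 was lower. Vcan, Cd300a and Spn, all under the main filter, had means of 1.21, 0.999 and 0.489 CPM in WT and 5.24, 4.68 and 4.16 CPM in db/db. Ccr2, the receptor of recruited monocytes, had 0.809 to 2.63 CPM in WT and 1.49 to 6.32 CPM in db/db. Of 10 neutrophil genes 2 were tested and 1 rose, S100a8 (log2 fold change 2.72, edgeR adjusted p 0.000201). S100a9, at 4.10 ± 3.48 CPM in WT and 8.42 ± 1.11 CPM in db/db (SD, n = 4 each), did not pass in edgeR (adjusted p 0.162) and passed in limma-voom. The 10 genes summed to 4.13 to 19.9 CPM in WT and 25.3 to 36.7 CPM in db/db, without overlap, while Csf3r, Ly6g, Camp, Mmp8 and Cxcr2 had at most 2 counts in any library. Neutrophils also express Lyz2, and their part in its rise was not tested.

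None of the 12 T and NK cell genes could be tested. Of 8 B cell genes Ighm, the IgM heavy chain, rose from 4.16 ± 2.47 to 38.8 ± 16.8 CPM (SD, n = 4 each; adjusted p 1.25e-05 in edgeR), with Cd79a at 0 counts. Of 10 dendritic cell genes 3 were tested and Fscn1 rose by 0.90, a call that was lost with the muscle covariate, and Flt3 and Clec9a had at most 1 count in any library. Of 11 mast cell and eosinophil genes 3 were tested, of which Tpsb2 rose by 1.29 and Hdc fell by 0.99, with Siglecf, Prg2 and Epx at 0. Neither passed without db/db replicate 1, without WT replicate 2 or with the muscle covariate, and Tpsb2 also did not pass without WT replicate 3 or 4, without db/db replicate 2 or 3 or with scaling by library total. The sums of these lists in WT and db/db were 2.02 to 11.8 and 2.98 to 20.8 CPM for T and NK cells, 3.82 to 9.39 and 16.4 to 74.6 CPM for B cells, 42.8 to 52.6 and 56.0 to 62.5 CPM for dendritic cells, and 19.5 to 30.8 and 29.0 to 55.4 CPM for mast cells and eosinophils.

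Genes of other tissue cells moved in both directions. Of 10 fibroblast genes 9 rose (median log2 fold change 1.35), and the smallest adjusted p were those of the matrix genes Dpt (log2 fold change 2.45), Col3a1 (2.06), which overlaps Gm47302, and Col1a2 (1.54). The sum of the list was 715 to 859 CPM in WT and 1355 to 2895 CPM in db/db, highest in db/db replicate 1 as for the macrophage markers. Of 9 tested endothelial genes Kdr, Emcn and Tek, genes of blood vessels, fell with log2 fold changes of −0.74, −1.06 and −1.20, and Pdpn, a gene of lymphatic vessels and fibroblasts, rose by 2.36. Of 12 tested brown adipocyte genes 7 fell and 2 rose (median −0.56). Cidea, Ppargc1b and Adrb3, which overlaps Gm45470, fell with log2 fold changes of −1.24, −1.19 and −1.22, and the general adipocyte genes Plin1 and Fabp4 rose by 0.79 and 0.65. In the skeletal muscle list the smallest adjusted p were those of the contractile genes Mylpf (2.70) and Tnnt1 (3.53) and of the myoglobin gene Mb (3.46), which overlaps Apol6. With the muscle covariate 3 fibroblast genes were higher, 1 endothelial gene was lower and 0 higher, and 1 brown adipocyte gene was lower and 0 higher. Without WT replicate 4, 4 brown adipocyte genes fell. In this list 1 gene rather than 2 was higher without WT replicate 1, 2 or 4 and without db/db replicate 2 or 3. The part of fibroblast and adipocyte content in the marker values was not tested. For muscle content only the covariate fit was run, in which it cannot be told apart reliably from genotype.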

How the data were processed

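Bulk RNA-seq of BAT was analysed in 4 WT and 4 db/db libraries, with genotype and replicate number taken from the sample titles. The authors deposited raw counts per Ensembl gene. Per their methods, single-end mRNA reads from a commercial service were trimmed with bbduk, aligned to mm10 with STAR and counted with HTSeq-count. The submitters' processing notes name Trimmomatic, HISAT2 and DESeq2. The paper also names DESeq2 in its methods and the other tools in its list of materials. Which trimmer and aligner made the counts could not be settled. Strand use and the collapsing of molecular identifiers are not given in the sources used here, so PCR copies may be counted, and genes with shared exon bases are called uncertain. The authors' normalized table and the sample sheet were not used here.

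Of 31053 genes, 30934 were matched to symbols, and the other 119 held at most 0.00758% of the counts of a library. Genes were filtered with filterByExpr (minimum count 10, minimum total 15), scaled by TMM and tested by genotype alone with edgeR 4.0.16 under R 4.3.3, with Benjamini-Hochberg adjustment over 9264 genes at 0.05. CPM are counts scaled by the filtered library total and the TMM factor. Resident-to-general ratios used log2 CPM (prior count 2) and all 70 assignments of libraries (scipy 1.17.1). Intervals are exact 95% intervals of the ratio of rates and, like the floor of 3 counts, cover counting error only. The muscle score is the mean z-score of log2 CPM over the skeletal muscle list.

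All 10 markers are named with every library's value. From each of 18 other lists the text names the 3 genes of smallest adjusted p in each direction and defining markers near 0. Other genes (Ptprc, Cx3cr1, Lst1, Il34, Maf, Zeb2, Irf8, Lyn, Myd88, Tlr4, Ccr2, Mgl2, Vcan, Cd300a, Spn and S100a9) were chosen after their values were seen. Members and lists were chosen with earlier results of these data known. Alternatives were DESeq2 1.42.0, limma-voom (limma 3.58.1), 4 other scalings, 2 other filters, the replicate block, the muscle covariate, 2 other prior counts and leaving out each library. On simulated counts with changes of 2 on the log2 scale, edgeR called 184 of 189 changed genes among 9054, with 13 false calls, and 0 of 9070 with no change. The simulation changed 200 genes and took levels from the mean of both genotypes. It therefore does not cover a change of many genes or markers with few counts in WT. Libraries of 1 genotype differed by more than counting noise (chi-square per degree of freedom at least 4.20 over 12 pairs). Per the study, each library came from a different mouse. Results for some listed genes are not reported here.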

Additional observations from a re-analysis of the deposited data

Results flagged for a closer look

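Among 54 groups of 4 libraries, 4 held a library whose gap to its nearest neighbour was large for the range of the group (Dixon's criterion at 95%), where chance gives about 2.7. Csf1r stood at 46.5 CPM in WT replicate 1, against 22.1 to 25.7 CPM in the other WT libraries. The log2 ratio of Mrc1 to Cd68 was −1.09 in db/db replicate 4, against 0.00 to 0.075 in the others. In the same library the log2 ratio of Mrc1 to Csf1r was −2.78, against −1.92 to −1.82. The log2 ratio of Cd163 to Cd14 was 1.64 in db/db replicate 3, while the remaining db/db libraries had 2.85 to 2.94. Why these libraries stood apart was not tested.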

How the results depend on the processing

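Of 140 refits of single markers, 136 kept the direction and the side of the threshold, 0 changed direction, 2 lost the call (Mrc1 and Cd163 with the muscle covariate) and 2 gained it (Cd14). The muscle covariate lowered the count over all genes to 763, while the other alternatives gave 2018 to 3170. Testing all genes with a count gave 1 marker lower in db/db. At least 10 counts in every library left 4 markers, all 4 higher, and 4 of 4 pairs with the smaller change in the resident marker, because fewer genes were tested. Without 1 library, the counts were 2236 to 2483 genes, 7 markers higher, 0 to 1 lower (1 without WT replicate 2), and 8 to 10 of 12 pairs of tested markers with the smaller fold change in the resident one (10 with all libraries). The replicate number as a block gave 2557 genes, 7 markers and 10 pairs. Same-numbered libraries did not deviate together (r −0.078 to 0.049), so the numbers do not pair the samples. At other prior counts 3 ratios changed direction, Mrc1 over Ms4a7 to −0.18 (prior count 0.5), and Mrc1 over Aif1 to 0.07 and Cd163 over Ms4a7 to 0.24 (prior count 5). A larger prior count shrinks the change of genes with few counts more than that of other genes. Ratios were not retested without 1 library, since 3 against 4 cannot go below 0.0571. Of 648 list counts, 63 moved by over 1.5 times, 17 of them with the muscle covariate. Depth limits Fcgr1, Ms4a7 and the inflammatory genes, which were under the main filter.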
